A study of Homo sapiens with 12 samples.

Results

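The comparison described here sets the second culture of HEK293 cells (an established human line of embryonic kidney origin) against the first. The series holds 12 libraries of poly(A) RNA, and the replicate number in their labels was taken as the passage, because the design text says that the cultures were independent passages. The 4 libraries of replicate 2 (control, gag-pol, gag and NC) were compared with the 4 libraries of replicate 1, paired by construct, so 8 of the 12 libraries are contrasted. The model was fitted to all 12, so the libraries of replicate 3 also enter the filter and the estimate of spread. All 12 cultures were wild-type cells transfected with a plasmid. Control cells received LifeAct-Dendra2, a fluorescent reporter of actin filaments, and the other groups received human PEG10 as gag-pol, as gag or as its nucleocapsid fragment NC, all driven by the CMV promoter. Dates of harvest and library preparation are not given in the sources used here, so passage, harvest and handling cannot be told apart, and each side of the comparison is 1 passage. The p-values below therefore measure the spread between libraries around construct and passage, not the spread between passages.

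A passage is a transfer of growing cells to a new dish. HEK293 cells divide quickly, carry rearranged chromosomes and express some neuronal and neuroendocrine genes beside epithelial keratins. Cultures of one line can differ in cell density, in the share of cells in each phase of the cell cycle, in nutrient supply and in RNA handling, and these differences lie beneath any comparison of constructs made across the cultures.

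The 8 libraries held between 30625725 and 41708839 counts, and PEG10 itself took 0.0341% of the counts at the lowest and 7.35% at the highest. Normalized PEG10 counts were 12269 in control replicate 1 and 12638 in control replicate 2, and 110023 and 91543 in the NC libraries. They were 2835980 in gag-pol replicate 1 against 1331650 in replicate 2, and 2194290 in gag replicate 1 against 1409240 in replicate 2. Each PEG10 construct was above the control of its own passage in both passages, and gag-pol and gag had lower counts in replicate 2. Over the 4 pairs the log2 fold change of PEG10 was -0.50 ± 0.33 (SE, adjusted p = 0.31), which did not pass the test. Of 8 genes fixed as markers of HEK293 cells, only CDH2, which encodes N-cadherin, passed the test (log2 fold change 0.19, adjusted p = 0.034), and the summed level of the 8 ran from 42562 to 50965 normalized counts in replicate 1 and from 42019 to 58663 in replicate 2. UMOD, a marker of differentiated kidney tubules, had no count in the 8 libraries. Of 5 neuron markers, SNAP25 fell, a call lost in 10 alternative settings, and the other 4 did not pass the test. No tested marker of fibroblasts, blood cells, hepatocytes or kidney tubules passed it.

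Genes differed widely between the passages. At an adjusted p under 0.05 in edgeR's quasi-likelihood test, 5242 of 17176 genes differed between replicate 2 and replicate 1 (30.5% of genes tested), of which 2724 were higher (15.9%) and 2518 lower (14.7%) in replicate 2. Most differences were small. Called genes changed by a median of 0.39 in absolute log2 value, and 521 genes (3.03%) passed the test with a 2-fold change or more, 298 of them higher (1.73%) and 223 lower (1.3%). The direction was shared across constructs in 4938 of the 5242 called genes (94.2%), against 8359 of all 17176 genes tested (48.7%). The test itself favours genes whose pairs move alike, so the higher share among called genes is not separate evidence. The call count rests in part on single libraries: it was 3263 without control replicate 2 and 3472 without gag replicate 1. The libraries of the passages did not overlap at all for 1852 genes that were higher (10.8%) and 1557 that were lower (9.06%). Across genes, the differences of one construct pair correlated with those of another at a Spearman's rho of 0.39 to 0.60 (17176 genes, 6 combinations of pairs, which share passages but no library). The lowest value was that of the gag-pol and NC pairs. Among called genes with a shared direction, the NC pair gave the smallest change in 46.9% of those that rose and 42.5% of those that fell. It did not give the smallest change throughout: in the lists of ribosomal proteins, mitosis, the unfolded protein response and ERK feedback described below, its median was the largest of the 4 pairs.

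The libraries of replicate 3 give the scale of this difference. Replicate 3 differed from replicate 1 in 7149 genes (41.6%), 3540 higher (20.6%) and 3609 lower (21%), and from replicate 2 in 4653 genes (27.1%). These comparisons share libraries with the one described here, so their values are set beside it for named genes and were not used as independent evidence.

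IRF7 encodes a transcription factor of the interferon response. It gave the largest rise among called genes with a mean log2 CPM of at least 1 and one direction in the 4 constructs. The limit is set on the mean, so genes that are low in 1 replicate can pass it. IRF7 itself was low in replicate 1, at 0.757 CPM against 5.61 CPM in replicate 2. Normalized counts in replicate 1 were 29.1 in control, 21.2 in gag-pol, 33.9 in gag and 29.7 in NC. In replicate 2 they were 163, 298, 269 and 114 in the same order. All 4 libraries of replicate 2 were above all 4 of replicate 1, and the log2 fold change was 2.86 ± 0.38 (adjusted p = 9.4e-05). Replicate 3 lay in between, at a log2 fold change of 1.57 over replicate 1.

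IRF7 lies on chromosome 11 of GRCh38 (612553 to 615983, reverse strand), and the 3 genes that follow it along the chromosome rose with it. CDHR5, a protocadherin of the intestinal and kidney brush border, rose from 84.0 ± 21.7 to 508 ± 172 normalized counts (SD, n = 4), a log2 fold change of 2.61 ± 0.42 (adjusted p = 0.0026). SCT, which encodes the gut hormone secretin, had 10.4, 6.04, 3.63 and 15.4 normalized counts in control, gag-pol, gag and NC of replicate 1. It had 63.9, 120, 114 and 68.8 in replicate 2, a log2 fold change of 3.33 ± 0.40 (adjusted p = 3e-06). The dopamine receptor gene DRD4 (637269 to 640706, forward strand) rose from 219 ± 64.9 to 913 ± 270, a log2 fold change of 2.11 ± 0.35 (adjusted p = 0.0047), and lost the call without the control construct and without the gag-pol construct. Together the 4 genes span 28.2 kb. Their flanking genes did not pass the test: PHRF1 changed by -0.19 ± 0.08 (adjusted p = 0.069) and DEAF1 by 0.01 ± 0.06 (adjusted p = 0.96) on the log2 scale. PHRF1 passed it in 5 of the alternatives. IRF7, CDHR5 and DRD4 were named by the rule for large changes, whereas SCT, PHRF1 and DEAF1 were chosen after their values were seen. Whether the counting used strand is not given in the sources used here, so reads that run from one of these genes into the next cannot be told apart from separate transcripts.

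**Figure D1:**
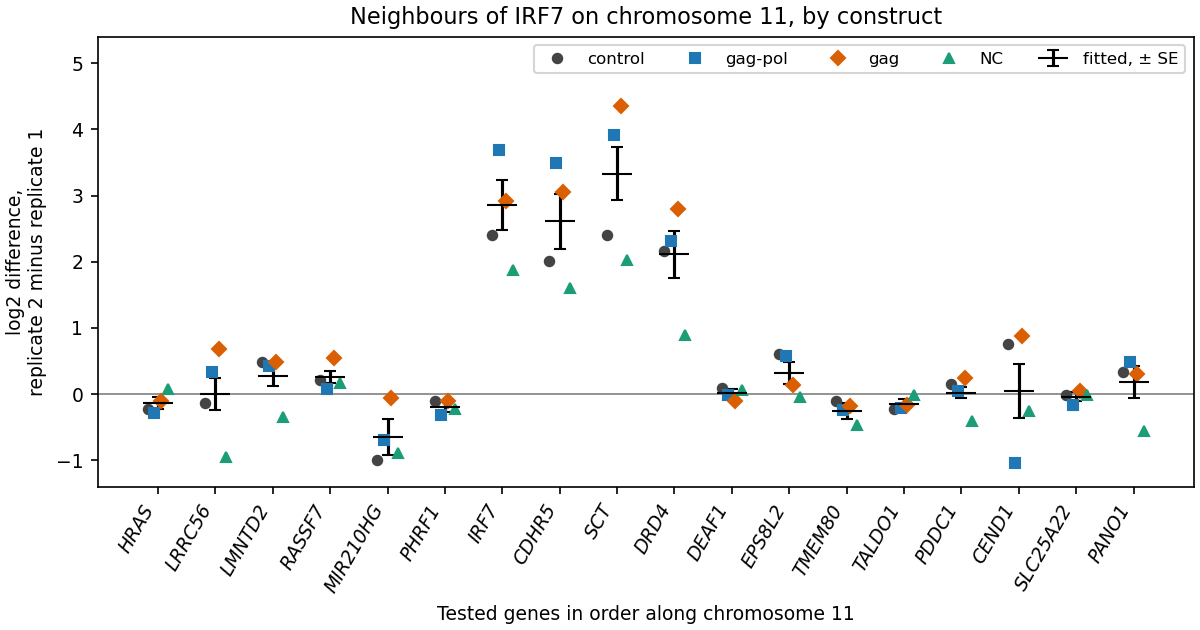
The log2 difference of replicate 2 minus replicate 1 (vertical axis) for 18 tested genes in order along chromosome 11. Coloured points are the 4 construct pairs, and black marks are the fitted log2 fold change ± SE. IRF7, CDHR5, SCT and DRD4 stand between 2.11 and 3.33 in the fit, and the 2 genes that flank them lie near 0.

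The other large rises were those of 3 protein-coding genes, AHNAK, FRMD1 and MMRN2, and of 4 noncoding or uncharacterised transcripts. AHNAK, a giant scaffold protein beneath the plasma membrane, had 1647, 1599, 1312 and 2050 normalized counts in control, gag-pol, gag and NC of replicate 1 and 7072, 8120, 6794 and 5643 in replicate 2. The groups did not overlap (log2 fold change 2.09 ± 0.19, adjusted p = 0.00021), and the value of replicate 3 over replicate 1 was 2.01. FRMD1, a FERM domain gene, was the most even of them: its 4 construct pairs lay between 2.05 and 2.38, with a fitted value of 2.23 ± 0.14 (adjusted p = 1.3e-09). MMRN2, an endothelial matrix glycoprotein gene, rose from 21.9 ± 10.4 to 93.7 ± 33.6 normalized counts (log2 fold change 2.07 ± 0.34, adjusted p = 0.00017). The other transcripts were KCNQ1OT1, the antisense RNA of an imprinted domain (2.21 ± 0.57, adjusted p = 0.03), XIST, the RNA of X inactivation (1.96 ± 0.42, adjusted p = 0.015), LOC100190986 (2.81 ± 0.47, adjusted p = 0.0025) and LOC644285 (1.86 ± 0.42, adjusted p = 0.0086). KCNQ1OT1 kept its call in 12 of 24 alternatives and XIST in 17 of 24, so both rises are less secure than those of AHNAK or FRMD1. After a smooth trend on GC content and transcript length was removed from each library, these genes remained called. Their log2 fold changes were then 0.86 for KCNQ1OT1, 1.46 for XIST, 1.47 for AHNAK and 2.07 for FRMD1. In 8 of these 10 largest rises the NC pair gave the smallest difference. MALAT1 and NEAT1, abundant nuclear RNAs looked up afterwards, did not pass the test, at 1.10 ± 0.36 and -0.76 ± 0.36. They did pass it in 5 and 3 of the alternatives.

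**Figure D2:**
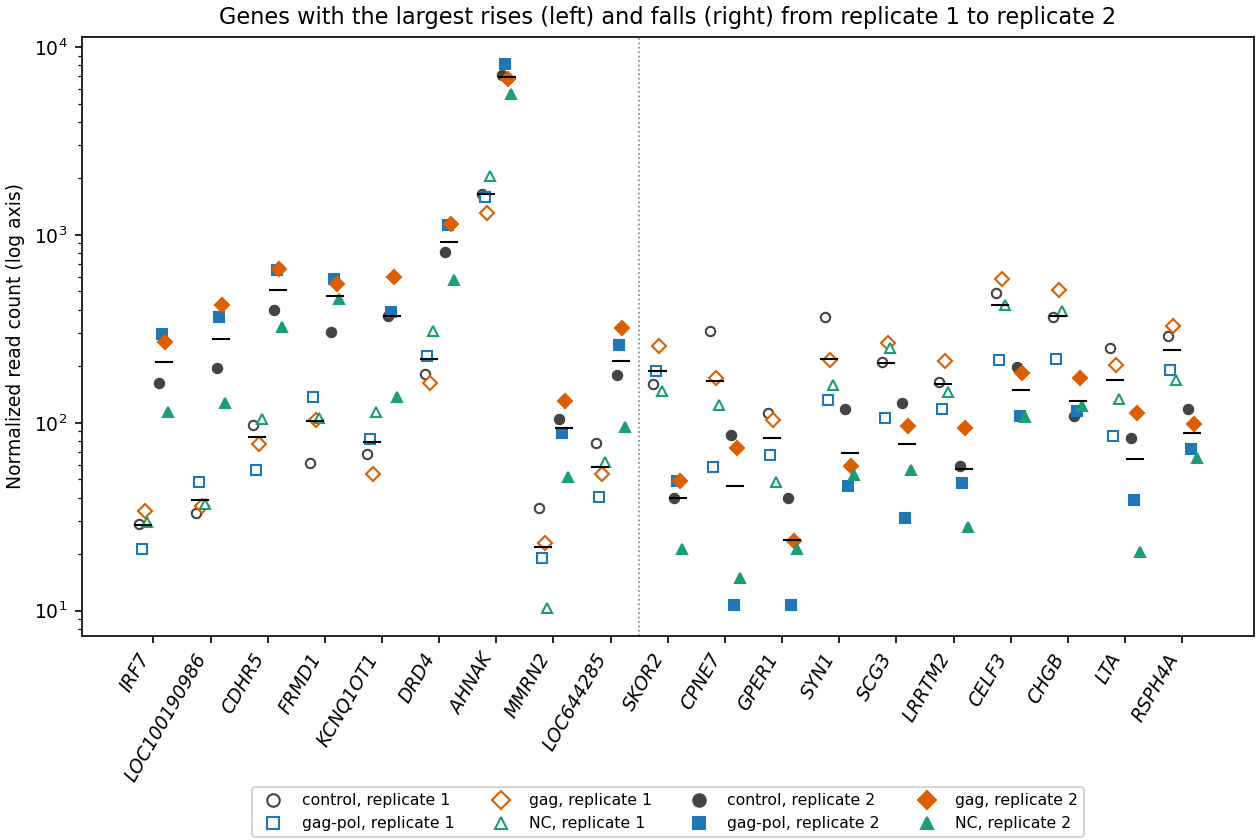
Normalized read counts (vertical log axis) of the genes with the largest rises, left of the dotted line, and the largest falls, right of it, leaving out XIST. Open symbols are the 4 libraries of replicate 1, filled symbols those of replicate 2, shape and colour give the construct, and black bars are the means of 4 libraries. Open and filled symbols do not overlap for any gene on the left, and on the right they overlap for CPNE7, SCG3 and LTA.

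Transcript length separated the passages across the whole table. Genes were grouped by their longest annotated transcript, with a length known for 16356 of the genes tested (95.2%). Grouping by length was not part of the planned comparison. Of 550 genes with transcripts of 10000 to 15000 bases, 297 were higher (54.0%) and 21 lower (3.82%) in replicate 2, with a median log2 fold change of 0.32. Of 140 genes at 15000 bases and longer, 71 were higher (50.7%) and 9 lower (6.43%), with a median of 0.42. Of 8098 genes at 2000 to 5000 bases, 950 were higher (11.7%) and 1507 lower (18.6%), with a median of -0.05. Transcripts of at least 10000 bases took 3.93% to 4.53% of all counts in the libraries of replicate 1 and 5.13% to 6.45% in those of replicate 2, so the passages did not overlap. The NC pair showed the smallest shift: in the longest class its median difference was 0.12, against 0.44 to 0.66 in the other pairs. In replicate 3 the share was 5.42% to 6.60%.

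HUWE1, a very large ubiquitin ligase with a transcript of 14796 bases, illustrates it. It had between 22531 and 28860 normalized counts in replicate 1 and between 42451 and 55927 in replicate 2 (log2 fold change 1.04 ± 0.10, adjusted p = 7.2e-07). SRRM2, a giant protein of nuclear speckles, rose from 63736 ± 4196 to 89439 ± 12880 (0.49 ± 0.10, adjusted p = 0.00085), and its NC pair differed by 0.01. When a smooth trend on GC content and length was removed from each library, HUWE1 stood at 0.55 and remained called, and SRRM2 stood at 0.21 (adjusted p = 0.058). Of all genes with transcripts of at least 10000 bases, 368 were higher and 30 lower before that removal, and 224 higher and 152 lower after it. The 30 lower genes became 15 or 16 without control replicate 2, either gag library or gag-pol replicate 1. GC content moved with the difference more weakly. The median log2 fold change ran from -0.06 in genes with a GC content under 40% to 0.09 in genes at 60% and above.

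**Figure D3:**
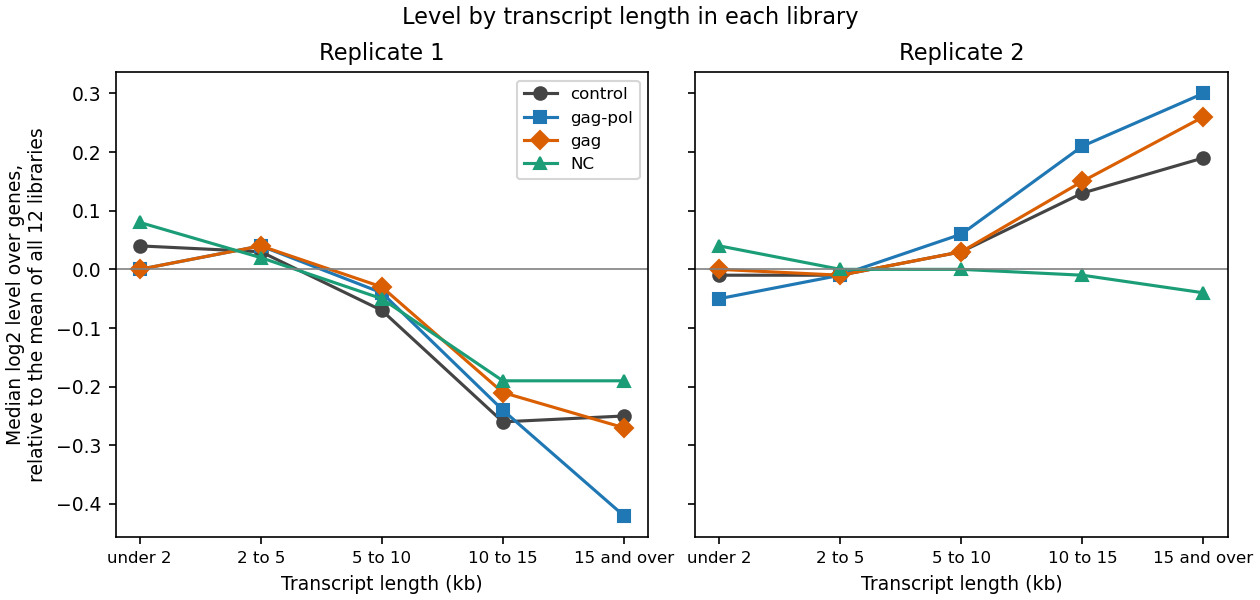
The median log2 level over genes in each class of transcript length (horizontal axis, kb), relative to the mean of all 12 libraries (vertical axis), in the 4 libraries of replicate 1 (left) and of replicate 2 (right). Lines are constructs. Transcripts of 10 kb and longer lay between -0.42 and -0.19 in replicate 1, and in replicate 2 between 0.13 and 0.30 except in NC, at -0.01 and -0.04.

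Among the 10 largest falls, SKOR2, SYN1, SCG3, LRRTM2, CELF3 and CHGB are known from neurons or neuroendocrine cells, a grouping made after the values were seen. SKOR2, a corepressor of cerebellar Purkinje cells, had 160, 189, 255 and 147 normalized counts in control, gag-pol, gag and NC of replicate 1 and 39.9, 48.8, 49.0 and 21.4 in replicate 2. The groups were fully apart (log2 fold change -2.26 ± 0.25, adjusted p = 1.3e-06), and replicate 3 was as low, at -2.45 against replicate 1. SYN1, which encodes synapsin I of synaptic vesicles, had 365, 133, 215 and 158 in replicate 1 and 118, 45.9, 58.8 and 53 in replicate 2. Each pair fell by a similar step, from -1.84 to -1.50, although the control libraries were highest in both passages (-1.66 ± 0.20, adjusted p = 3e-06). CHGB, a granin of dense-core secretory granules, fell from 372 ± 119 to 130 ± 29.4 (-1.47 ± 0.23, adjusted p = 0.00017). SCG3, a granin-binding secretogranin, fell from 208 ± 71.9 to 77.5 ± 42.4 (-1.55 ± 0.25, adjusted p = 8.2e-05), with its libraries overlapping. CELF3, a neuronal RNA-binding protein gene, fell from 426 ± 154 to 150 ± 48.3 (-1.50 ± 0.20, adjusted p = 3.1e-05), and LRRTM2, which encodes a synaptic adhesion protein, from 160 ± 39.5 to 57.1 ± 27.7 (-1.55 ± 0.23, adjusted p = 3e-05). CHGA, a further granin looked up afterwards, fell in each pair, from 269 ± 22.1 to 109 ± 14.2.

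Many neuronal genes are held down outside neurons by the repressor REST, which binds an element called RE1. Promoters of the neuronal and neuroendocrine genes, called or not, were searched for its left arm, TTCAGCACC, on both strands. Each window held the 250 bases before and 50 bases after a gene start in RefSeq (GRCh38.p14). The letters occur in 0.376% of 35116 such windows. Among the largest falls they occur in SYN1 and SCG3, shown here 5′ to 3′ on the gene's strand with the left arm in capitals. The SYN1 stretch (chrX:47620067-47620096, reverse strand) has the element beginning 233 bases before the gene start, and the SCG3 stretch (chr15:51681505-51681534, forward strand) has it from base 9 of the transcript, within the 5′ UTR.
SYN1: gccagcTTCAGCACCgcggacagtgccttc
SCG3: aggaacTTCAGCACCcacagggcggacagc
In SYN1 the left arm is followed, after a spacer of 2 bases, by GGACAG, and this longer pattern occurs in 5 of the 35116 windows (0.0142%). A match describes these letters and does not show that REST binds there. The share of matches was not compared with neuronal genes that did not fall, and a role of REST in the passage difference was not tested. REST mRNA itself had 1507 ± 142 normalized counts in replicate 1 and 1690 ± 83.4 in replicate 2 (log2 fold change 0.17 ± 0.08, adjusted p = 0.10).

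The remaining large falls had other roles. CPNE7, a calcium-dependent membrane-binding copine gene, fell by 2.04 ± 0.26 on the log2 scale (adjusted p = 4.5e-06). GPER1, a G protein-coupled estrogen receptor gene, fell from 83.2 ± 30.6 to 23.9 ± 12.1 (-1.83 ± 0.27, adjusted p = 3.3e-05), whereas the mean of replicate 3 was 162 (log2 fold change 0.84 over replicate 1, adjusted p = 0.007). LTA, the lymphotoxin alpha cytokine gene, fell by 1.46 ± 0.27 on the log2 scale, and its means were 168, 63.9 and 161 in replicates 1, 2 and 3. RSPH4A, a radial spoke protein of motile cilia, fell from 244 ± 75.8 to 88.6 ± 24.5 (-1.46 ± 0.20, adjusted p = 1.4e-05). CPNE7, SCG3 and LTA, whose passages overlapped, lost the call when libraries were not paired by construct.

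By absolute level, the rises were largest in XIST, EEF1A1, HUWE1, MKI67 and SRRM2. EEF1A1, the translation elongation factor, rose from 200492 ± 27205 to 252470 ± 48430 normalized counts (0.32 ± 0.09, adjusted p = 0.011), with overlapping libraries. The absolute falls were largest in HSPA1B, ACTB, HNRNPA2B1, HNRNPU and RNF40. RNF40, a ubiquitin ligase for histone H2B, fell from 19442 ± 2958 to 13500 ± 1529 (-0.52 ± 0.07, adjusted p = 2.1e-05) without overlap. ACTB, cytoplasmic actin, fell by 0.28 ± 0.08 on the log2 scale (adjusted p = 0.0071), with overlapping libraries.

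Of the 29 lists of genes by role, the extracellular matrix list held the highest share of genes that were higher in replicate 2. Of 24 tested collagens, laminins and other matrix genes, 17 were higher (70.8%, against 15.9% of all genes tested) and 1 was lower, and their median log2 fold change was 0.60, against -0.004 over all genes. COL6A2, a chain of collagen VI, had 3315, 3416, 2559 and 3597 normalized counts in control, gag-pol, gag and NC of replicate 1 and 6041, 5858, 4943 and 6003 in replicate 2. Its passages were far apart (0.83 ± 0.06, adjusted p = 1.2e-08), and its transcript, at 3445 bases, is of ordinary length. Most of the list is longer, with a median transcript length of 6488 bases against 3343 over all genes, and 5 tested members are under 5000 bases. LAMA1, the laminin alpha 1 chain, rose by a steady 1.01 to 1.10 in the 4 pairs (1.07 ± 0.09, adjusted p = 5.3e-08). COL12A1 rose most (1.35 ± 0.19, adjusted p = 4.4e-05). FN1, fibronectin (0.75), the basement membrane collagens COL4A1 (0.60) and COL4A2 (0.68), and the laminin chains LAMB1 (0.57), LAMC1 (0.62) and LAMA5 (0.80) rose too, and COL5A2 was the 1 gene that fell (-0.80). Leaving out any 1 of the 8 libraries gave 17 higher genes, and removing the trend on GC content and length also gave 17, with a median of 0.43. The 1 gene lower became none without NC replicate 1 or control replicate 2 and 2 without control replicate 1 or gag replicate 2. All 4 construct pairs had a median between 0.51 and 0.65. In 48 tested cadherins and protocadherins, which join cells to each other, 7 were higher (14.6%) and 1 lower, with a higher share near that of all genes. The 1 lower gene was not called without either control or gag library or gag-pol replicate 1. Among the called members, PCDH12 (1.38 ± 0.26), CDH4 (0.73 ± 0.08) and CDH23 (0.70 ± 0.10) rose most.

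Of the cell cycle lists, mitosis held mostly rises and DNA replication mostly falls among the called genes. Of 54 tested genes of mitosis, 16 were higher (29.6%) and 1, SMC4, was lower, which became 3 lower without NC replicate 2. MKI67, the proliferation marker Ki-67 that coats mitotic chromosomes, had 18822, 20564, 20758 and 21819 normalized counts in replicate 1 and 52439, 46870, 53504 and 33140 in replicate 2. The groups did not overlap, with a fitted log2 fold change over all pairs of 1.18 ± 0.17 (adjusted p = 0.0011). The NC pair gave the smallest step, at 0.6. CENPF, a kinetochore protein (0.74 ± 0.09), and ASPM, a spindle pole protein (0.68 ± 0.07), followed. Over the whole list the median difference was largest in the NC pair, at 0.22, against 0.10 in control, 0.06 in gag-pol and 0.09 in gag. These 3 genes have transcripts over 10000 bases, and with the trend on length and GC content removed they stood at 0.78, 0.55 and 0.54, all called, while 30 of the 54 were then higher and none was lower. Short transcripts of the list also rose, such as AURKB (0.44), a kinase of chromosome segregation, and UBE2C (0.38), an E2 enzyme of the anaphase-promoting complex. Of 50 tested genes of DNA replication, 21 were lower (42.0%, against 14.7% of all genes) and 1, POLE, was higher. MCM5, a subunit of the replicative helicase, had 11401, 10573, 11167 and 10589 in replicate 1 and 7605, 6686, 6933 and 6852 in replicate 2, without overlap (-0.64 ± 0.08, adjusted p = 2.2e-06). CDC6, a licensing factor (-0.48 ± 0.08), and PRIM1, the primase subunit (-0.48 ± 0.08), fell as well. The list median was -0.15 in the control pair, -0.24 in gag-pol and -0.27 in gag but 0.004 in NC, and 13 genes were lower without gag replicate 2.

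Among 49 tested histone genes of the kind made in S phase, whose mRNAs mostly lack a poly(A) tail, 8 were lower (16.3%) and 2 higher, shares near those of all genes or below them, although the median was -0.45. Several had few counts: HIST1H2BG fell from 24.0 ± 18.9 to 5.73 ± 3.75 normalized counts, and HIST3H3 was at 0 in 3 libraries of replicate 1. The 8 lower genes became 5 without control replicate 2 and 4 without gag replicate 1, where 4 were higher. No histone was higher without NC replicate 1, control replicate 2, gag replicate 2 or gag-pol replicate 1.

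**Figure D4:**
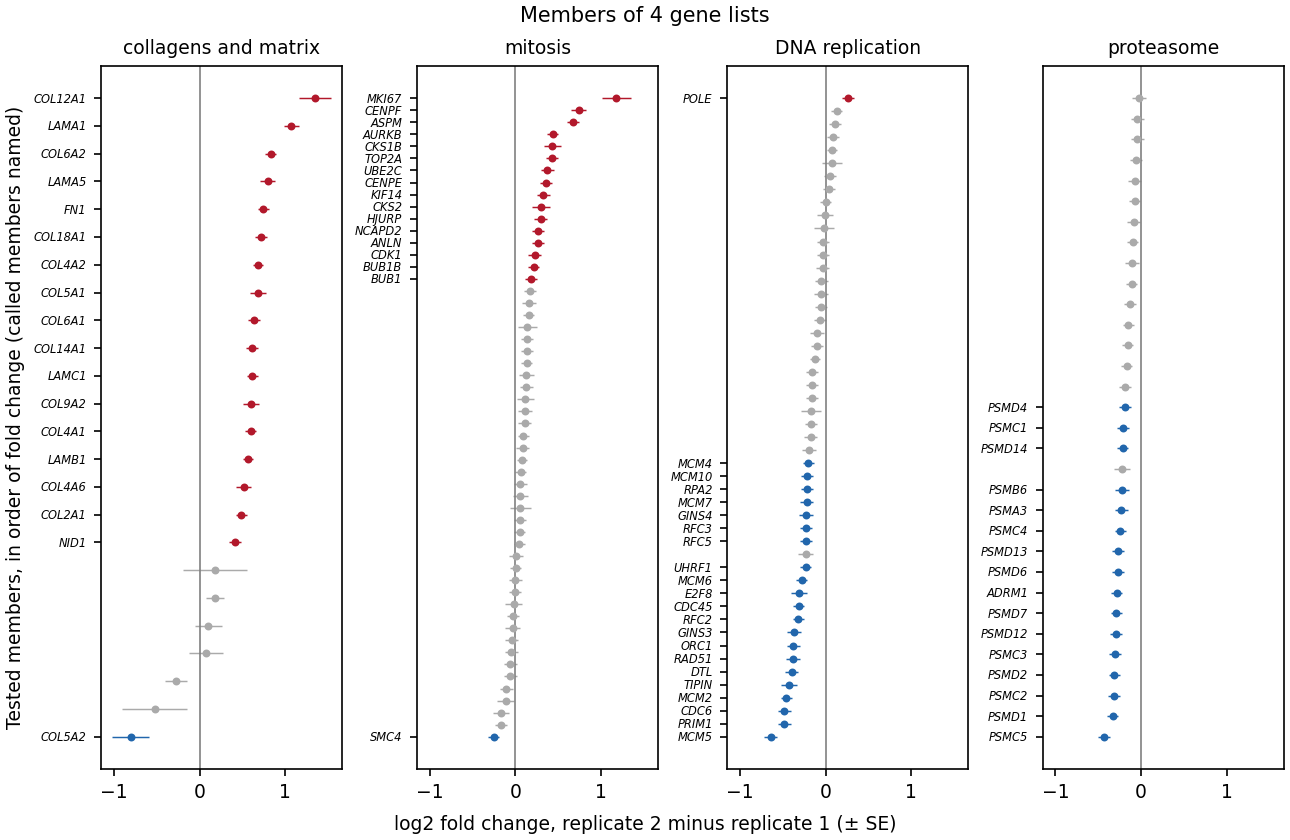
The log2 fold change of replicate 2 minus replicate 1 (horizontal axis, ± SE) for each tested member of 4 lists. Red members were higher and blue members lower at an adjusted p under 0.05, grey members did not pass the test, and the called ones are named. Of 24 matrix genes 17 are red, of 54 mitosis genes 16 are red, of 50 DNA replication genes 21 are blue, and of 32 proteasome subunits 16 are blue.

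Many ribosomal protein mRNAs rose by a small step. Of 86 tested genes, 46 were higher (53.5%) and 2, RPL26L1 and RPL36A, were lower, and the median was 0.21. By pair the median was 0.34 in NC and 0.14 to 0.18 in the others. RPL39, the largest rise, went from 10972 ± 1477 to 15130 ± 2989 normalized counts (0.46 ± 0.08, adjusted p = 0.00025), with overlapping libraries. The count depended on single libraries. It was 13 when gag replicate 1 was left out, 15 when control replicate 2 was, 17 when either NC library was and 19 when gag-pol replicate 1 was. The lower genes became 1 without either control or NC library or gag replicate 1. Ribosomal protein genes have many near-identical pseudogenes, and how reads with several matches were treated is not given in the sources used here. Of 29 nucleolar factors that build ribosomes, 5 were lower (17.2%, near the 14.7% of all genes) and none higher (against 15.9%). Without gag-pol replicate 2, 1 was higher. The lower count ranged from 3 without either gag library to 8 without NC replicate 2 or control replicate 1. Among the lower factors were NOP58 (-0.46 ± 0.06) and NOP56 (-0.34 ± 0.07), core proteins of box C/D small nucleolar ribonucleoproteins. Of 20 cytosolic aminoacyl-tRNA synthetases, which charge tRNAs, 9 were lower (45%) and 2, LARS and QARS, were higher, with VARS lowest (-0.40 ± 0.07). Without control replicate 2, 5 were lower and none higher, and without gag replicate 1 or gag-pol replicate 1 none was higher. Of 26 small nucleolar RNA host genes, 4 were higher (15.4%) and 5 lower (19.2%), against 15.9% and 14.7% of all genes, with a median of 0.08. The lower genes include SNHG11 (-0.62 ± 0.10) and SNHG17 (-0.60 ± 0.09). Leaving out NC replicate 2, control replicate 2 or gag replicate 1 gave 1 higher gene, and leaving out either NC library, control replicate 2 or gag-pol replicate 1 gave 3 lower.

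Splicing factors and proteasome subunits held falls and no rises among the called genes. None of 28 tested SR and hnRNP proteins, which choose splice sites, was higher, and 17 were lower (60.7%), with a median of -0.19 and construct medians of -0.23 to -0.17. SRSF6 had 9234, 8414, 10580 and 7984 normalized counts in replicate 1 and 6204, 5945, 6816 and 5757 in replicate 2, with no overlap (-0.55 ± 0.06, adjusted p = 1.9e-06). TRA2A (-0.51 ± 0.08) and TRA2B (-0.50 ± 0.07), related regulators of exon inclusion, came next. HNRNPA2B1 fell by 0.24 ± 0.07 on the log2 scale, within a range of -0.26 to -0.23 over the pairs. With the trend on GC content and length removed, 9 of the 28 were lower, and HNRNPA2B1, at -0.13 (adjusted p = 0.13), was no longer called. Of 32 proteasome subunits, 16 were lower (50%) and none higher, with a median of -0.20. PSMC5, an ATPase of the regulatory cap, was lowest, and its pairs lay between -0.46 and -0.42 (-0.44 ± 0.07, adjusted p = 8e-05). PSMD1 (-0.33 ± 0.07) and PSMC2 (-0.31 ± 0.07) followed. The median of the list was -0.27 to -0.22 in control, gag-pol and gag and -0.06 in NC, and 9 subunits were lower without control replicate 2.

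**Figure D5:**
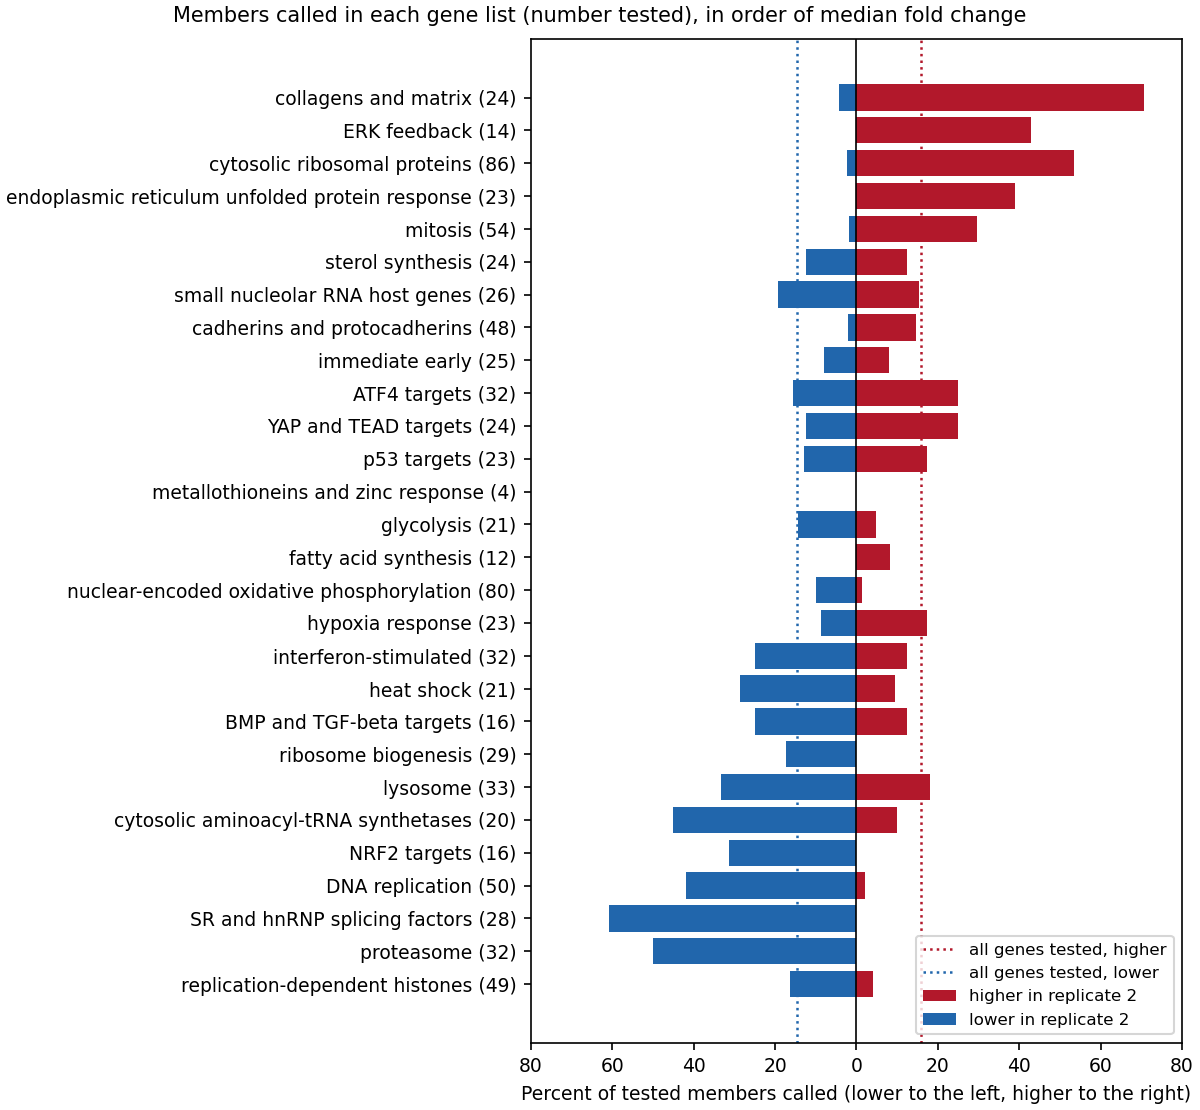
The percent of tested members that were higher (red, to the right) or lower (blue, to the left) in replicate 2 for each gene list, with the number tested in brackets. Dotted lines mark the 15.9% and 14.7% of all genes tested that were higher and lower. Matrix genes reach 70.8% higher and splicing factors 60.7% lower.

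Chaperones of the endoplasmic reticulum and of the cytosol were listed apart. In the endoplasmic reticulum, 9 of 23 tested genes of the unfolded protein response were higher (39.1%) and none lower, and 2 were lower without NC replicate 2. The list median was 0.27 in the NC pair and 0.03 to 0.14 in the others. HSP90B1, the Hsp90 of that compartment, had 18609, 22332, 18214 and 22857 normalized counts in replicate 1 and 26511, 30298, 25961 and 34549 in replicate 2, and every library of replicate 2 was above those of replicate 1 (0.51 ± 0.07, adjusted p = 6.2e-06). EDEM1 (0.45 ± 0.07) and SEL1L (0.38 ± 0.07), factors of the degradation of misfolded secretory proteins, rose too. Of 21 cytosolic heat shock genes, 6 were lower (28.6%) and 2 higher. HSPA1B, an inducible Hsp70, had 24841, 61929, 52728 and 28832 in replicate 1 and 21693, 37720, 37201 and 25924 in replicate 2. Its fitted log2 fold change over all pairs was -0.40 ± 0.11 (adjusted p = 0.013). Its gag-pol and gag libraries stood above control and NC in both passages and fell most between them, at -0.72 and -0.5. HSPB1, a small heat shock protein gene, rose by 0.39 ± 0.09. Only 2 genes of the list were lower when either gag library or gag-pol replicate 1 was left out.

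Targets of signalling pathways moved in mixed ways. Of 14 feedback genes of the ERK kinase pathway, 6 were higher (42.9%) and none lower, led by PHLDA1 (0.85 ± 0.14), SPRED3 (0.50 ± 0.12), an inhibitor of Ras signalling, and DUSP4 (0.49 ± 0.09), a phosphatase of the ERK kinases. The median of this list was 0.54 in the NC pair and 0.09 to 0.25 in the others. Of 16 targets of BMP and TGF-beta signalling, 4 were lower (25.0%) and 2 higher, and 1 was higher without NC replicate 1, control replicate 2, gag replicate 2 or gag-pol replicate 1. ID3, an inhibitor of basic helix-loop-helix factors, had 1501, 1463, 1776 and 1140 normalized counts in replicate 1 and 776, 745, 1108 and 637 in replicate 2, with no overlap (-0.86 ± 0.10, adjusted p = 2e-06). ID2 (-0.64 ± 0.08) and ID1 (-0.64 ± 0.18) fell with it. Among 24 targets of YAP and TEAD, which respond to cell density and tension, 6 were higher (25.0%) and 3 lower: MYOF fell (-1.4 ± 0.39) and DOCK5 (0.80 ± 0.09) and PTPN14 (0.75 ± 0.08) rose, both with transcripts over 10000 bases. None of the 12 with transcripts under 5000 bases was higher. Of 25 immediate early genes, 2 were higher and 2 lower (8.0% each, below the 15.9% and 14.7% of all genes). EGR1 had 2164, 6426, 8603 and 1446 in replicate 1 and 1280, 2213, 2799 and 798 in replicate 2. It was highest with gag-pol and gag in both passages, its groups overlapped, and its fall of 1.26 ± 0.37 on the log2 scale (adjusted p = 0.047) was called in 12 of 25 alternatives. JUND (0.30 ± 0.07) and KLF10 (0.28 ± 0.07) rose. No immediate early gene was lower without either gag library or gag-pol replicate 1.

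Of 16 tested NRF2 targets, the antioxidant genes, 5 were lower (31.2%) and none higher, although 1 was higher without control replicate 1. HMOX1, heme oxygenase, had 502, 606, 1169 and 457 normalized counts in replicate 1 and 240, 255, 359 and 168 in replicate 2, without overlap (-1.38 ± 0.14, adjusted p = 6.3e-07). NQO1 (-1.16 ± 0.31) and OSGIN1 (-0.51 ± 0.17) fell as well, and OSGIN1 was called in 16 of 25 alternatives. The list held 3 lower genes when either gag library or gag-pol replicate 1 was left out. Of 32 ATF4 targets of the integrated stress response, 8 were higher (25.0%) and 5 lower (15.6%). The falls were led by CHAC1 (-0.60 ± 0.17, called in 16 of 25 alternatives), CTH (-0.56 ± 0.12) and SESN2 (-0.54 ± 0.10). ASNS (0.33) and GDF15 (0.53) rose, and the lower share was near the 14.7% of all genes. The higher members became 3 without control replicate 2 and 5 without control replicate 1, gag replicate 2 or gag-pol replicate 1, and the lower members 3 without either gag library or control replicate 2. Of 23 p53 targets, 4 were higher and 3 lower, shares near the 15.9% and 14.7% of all genes. The median of this list was 0.02, so the list as a whole showed no fall. TP53I3 (-1.28 ± 0.25) and the apoptosis gene BAX (-0.59 ± 0.10) were among the falls, and the highest log2 fold change of the list was 0.39.

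Of 32 tested interferon-stimulated genes, 8 were lower (25.0%, against 14.7% of all genes) and 4, IRF7 among them, were higher (12.5%, against 15.9%). The list median was -0.35 in the NC pair and -0.05 in control, -0.01 in gag-pol and 0.001 in gag. IFIT1, an antiviral RNA-binding protein gene, fell from 647 ± 200 to 353 ± 154 (-0.91 ± 0.17, adjusted p = 0.0011). IFI44 fell (-1.10 ± 0.38) with overlapping libraries and was called in 14 of 25 alternatives. The RNA sensors DDX58 (-0.61) and IFIH1 (-0.59) were lower. BST2, a tether of budding virions, rose from 188 ± 47.5 to 371 ± 87.7 (0.99 ± 0.14, adjusted p = 2.6e-05), and IFITM1 rose by 0.70. Without control replicate 2, 4 were lower. In replicate 3, 14 of the list were higher and 2 lower than in replicate 1.

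Of 33 tested lysosomal genes, 11 were lower (33.3%, against 14.7% of all genes) and 6 higher (18.2%, near the 15.9% of all genes). ATP6V0D1, a proton pump subunit, had 2068, 1624, 1917 and 1203 normalized counts in control, gag-pol, gag and NC of replicate 1 and 1201, 962, 1022 and 891 in replicate 2. The groups did not overlap, though the highest library of replicate 2 lay just below the lowest of replicate 1 (-0.72 ± 0.09, adjusted p = 3.2e-06). NEU1, a sialidase, fell too (-0.59 ± 0.08). In replicate 3 against replicate 1, 2 members of the list were lower and 11 higher, and ATP6V0D1 and NEU1 stood at -0.06 and -0.13, neither called. The 6 higher members in replicate 2, such as the protease CTSB (0.41), were 3 without NC replicate 1 or control replicate 2 and 2 without gag replicate 1.

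Metabolic lists held few called genes. Of 80 nuclear-encoded genes of oxidative phosphorylation, 8 were lower (10%) and 1 higher, fewer in each direction than among all genes, and their median was -0.02. ATP5F1 (-0.30 ± 0.07) fell most. The lower count ran from 2, without either control library or gag replicate 2, to 13 without NC replicate 2, and was 3 without NC replicate 1. Of the gag-pol libraries, leaving out replicate 1 gave 5 and leaving out replicate 2 gave 3. No mitochondrially encoded gene could be tested, since the 13 of that list were not among the genes analysed here. Of 21 glycolysis genes, 3 were lower (14.3%, near the 14.7% of all genes) and 1 higher (4.76%, below 15.9%). Only 1 was lower without NC replicate 1, either control library or gag-pol replicate 1. The glucose transporters SLC2A3 (-0.44 ± 0.15) and SLC2A1 (-0.33 ± 0.07) were among the falls. SLC2A3 was called in 15 of 25 alternatives, and its gag pair differed by 0.01. Of 23 genes of the hypoxia response, 4 were higher (17.4%, near the 15.9% of all genes) and 2 lower (8.7%, below 14.7%). P4HA2 stood at 0.47 ± 0.08 and HILPDA at -0.48 ± 0.10. Leaving out control replicate 2 or any gag or gag-pol library gave 1 lower. Sterol synthesis had 3 of 24 higher and 3 lower (12.5% each, against 15.9% and 14.7% of all genes). The mevalonate pathway kinases MVK (-0.47 ± 0.10) and PMVK (-0.44 ± 0.10) fell. Without control replicate 1, 5 sterol genes were higher, and without gag-pol replicate 2, 6. Of 12 fatty acid synthesis genes, ACACA alone was called (0.36 ± 0.06), and none of 4 tested metallothioneins and zinc response genes was, at a lowest and highest log2 fold change of -0.36 and 0.25.

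Chromosome medians lay near 0. The median log2 fold change of the autosomes and the X chromosome lay between -0.04 on chromosome 13 and 0.05 on the X chromosome. Among 622 overlapping runs of 50 neighbouring tested genes, 17 had a median of at least 0.15 in absolute value. The lowest, at -0.31 (position 26440472 to 28923988 of chromosome 6), ran from BTN3A3 to TRIM27 across histone and zinc finger clusters and held 12 lower and 2 higher genes. The highest, at 0.19 (11861 to 981318 of chromosome 16), ran from DDX11L10 to LMF1 at the end of the short arm and held 17 higher and 5 lower genes, with a median difference of 0.25 in control, 0.10 in gag-pol, 0.27 in gag and 0.004 in NC.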

How the data were processed

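Poly(A) RNA libraries of 12 transfected cultures were sequenced as read pairs. Per the labels and the study's methods, the authors mapped reads to GRCh38.p13 with STAR 2.7.3, handled them with SAMtools 1.8 and counted them per gene with featureCounts, and the deposited values are these raw counts for 26485 gene symbols. The annotation, strand setting and treatment of reads with several matches are not given in the sources used here. All count columns were used.

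Counts were fitted with edgeR 4.0.16 (TMM factors, filterByExpr by construct with minimum counts of 10 and 15 in total, robust quasi-likelihood test) in R 4.3.3, on the 12 libraries jointly, in a model with a construct term and a replicate term. P-values are two-sided and Benjamini-Hochberg adjusted over the 17176 genes tested, with a threshold of 0.05. Values written with ± are fitted log2 fold changes with SE, or means of normalized counts with SD over 4 libraries. An exact permutation test over 4 pairs cannot go below p = 0.125 and was not used. To normalize a count, it was divided by its library's TMM-adjusted total and rescaled to the average total. Positions and transcript lengths are from GENCODE release 44, with 22930 symbols matched directly and 1347 through older names. The 2 libraries of each construct differed by more than sampling noise (chi-square of 33.94 to 88.7 per degree of freedom), so none was a duplicate.

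Genes named in the text were PEG10, the 10 genes that rose most and the 10 that fell most, if called, at a mean log2 CPM of at least 1 and moving one way in the 4 constructs, the 5 largest rises and 5 largest falls in CPM, and the 3 called members of each of 29 lists with the largest change. Others with values are list members or were chosen after their values were seen, and 3 lists were added that way. The group of transcripts of at least 10000 bases was likewise added and not planned. Some genes that the rule selects are not reported here. The comparison, members and lists were chosen with earlier results of these data known. Alternatives were RLE and upper-quartile factors, DESeq2 1.42.0, limma 3.58.1 (voom), other filters, fewer libraries or constructs, no construct term, no robust estimation, PEG10 left out, thinned counts, removal of a GC and length trend, and a minimum change of 0.5. The restriction to transcripts under 5000 bases was chosen after seeing the data. Tables and figures were made with Python 3.11.15, pandas 2.3.3 and matplotlib 3.10.9.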

Additional observations from a re-analysis of the deposited data

Results flagged for a closer look

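In 3 of 129 genes named or looked up, 1 of the 4 construct pairs stood apart from the other 3 by more than Dixon's 95% limit, where chance gives about 1 gene in 20. RPL39 differed by 0.61 on the log2 scale with NC and by 0.38 to 0.41 with the other constructs. HSPB1 differed by 0.73 with gag and by 0.24 to 0.30 with the others. SNHG11 differed by -0.42 with gag and by -0.71 to -0.66 with the others. Each kept its direction in all 4 pairs. Whether constructs differ in their response to passage could not be tested, since each construct has 1 library in each passage.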

How the results depend on the processing

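The number of genes that differed between replicates 2 and 1 was 5242. It was 2461 with no pairing by construct, 3200 of the shorter transcripts alone (under 5000 bases, so fewer genes tested), 2876 without the gag construct and 1814 with a minimum log2 change of 0.5. Leaving out each of the 8 libraries gave 3263 (without control replicate 2) to 5525, and 3472 without gag replicate 1. A fit of the 8 libraries of replicates 1 and 2 alone gave 6184. The other alternatives stayed within 1.5 times. For replicate 3 against 1, 7149 genes fell to 3049 with the minimum change. For replicate 3 against 2, 4653 fell to 1639 with no pairing by construct, 3058 without the control construct, 2790 without the gag construct and 1543 with the minimum change. Only the settings that leave out a library or construct have fewer libraries, and the cause of the drops was not tested.

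The biological coefficient of variation was 10.72% with the replicate number in the model and 21.94% with no replicate block. None of the called genes chosen by the naming rule or looked up, for which the alternatives were run, changed direction in any of them. List members named beside them were not followed through the alternatives. With the trend on GC content and length removed, 14 of the genes followed lost the call, and with no pairing by construct 33 did. With upper-quartile factors 45% of called genes were higher, against 52.0% as reported.  Each side holds 1 passage, so no alternative bears on whether another pair of passages would differ alike.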

Other observations

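Several groups of genes became visible only once the values were known, so their counts are descriptions and carry no test of the group. Of 46 tested genes of neuroendocrine secretion and synapses, 27 were lower in replicate 2 (58.7%, against 14.7% of all genes tested) and 1, INSM1, was higher (2.17%, against 15.9%), with a median log2 fold change of -0.70 and construct medians from -0.81 to -0.47. The lower genes include SCG2 (-1.86), the prohormone convertase PCSK1 (-1.67), the stathmin STMN4 (-1.32), RIMS2 (-0.99) and CPLX2 (-0.87), while the calcium sensor SYT1 stood at -0.01. The call was lost in 9 alternatives for STMN4 and in 7 for SCG2. Of the 33 with a promoter in the RefSeq table, whether called lower or not, 4 hold the left arm of RE1: SYN1, SCG3, UNC13A and UNC80.

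Of 72 tested genes of motile cilia, 22 were lower (30.6%) and 8 higher (11.1%). Their median difference was -0.56 in the NC pair, -0.16 in control, -0.06 in gag-pol and -0.24 in gag. The falls include RSPH4A (-1.46), WDR78 (-1.4), SAXO2 (-1.39), CCDC103 (-1.31), LRRC46 (-1.30) and the ciliary transcription factor FOXJ1 (-0.81), which was above replicate 1 in replicate 3 (0.79). The rises include the axonemal dynein heavy chains DNAH2 (1.21) and DNAH10 (1.00), with transcripts of 14563 and 14039 bases. Without NC replicate 1, 12 were lower.

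Of 494 tested genes named ZNF and a number, mostly C2H2 zinc finger factors, 159 were lower (32.2%) and 35 higher (7.09%), with a median of -0.18, and in replicate 3 against replicate 1 the counts were 240 lower and 47 higher. Without control replicate 2, 101 were lower and 22 higher, without gag replicate 1, 95 were lower, and without either gag-pol library 21 were higher.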
